A study of Mus musculus with 28 samples.

Results

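The genes described here are 10 mouse genes of milk protein synthesis and lactation, taken by name from 18194 genes measured on arrays: the caseins Csn1s1, Csn2 and Csn3, the whey protein genes Wap and Lalba, the whey acidic protein family gene Wfdc18, the milk fat globule genes Mfge8, Btn1a1 and Xdh, and Glycam1. They were chosen by name and not by a threshold on their values, and all 10 had a probe set on the array. In the lactating mammary gland, prolactin acts through the kinase Jak2 and the factor Stat5 on alveolar luminal cells, which then make caseins and whey proteins and release fat droplets wrapped in plasma membrane. Casein and whey genes are low in the gland of virgin animals and rise through pregnancy.

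Total RNA of whole tissue was measured in 11 primary mammary tumors (PT), 9 metastases in the lung (LungMets), 3 mammary glands of healthy mice (NMG) and 3 normal lungs (NL). The tumors grew in female Balb/C nude mice, 8 weeks old, from 50000 JygMC(A) cells, a single murine line of mammary carcinoma with spontaneous pulmonary spread, given at the 4th mammary gland. PT were taken on day 30 and LungMets on day 50 after the injection, and the normal tissues came from healthy nude mice of 6 to 8 weeks that received no cells. The line itself was also cultured, with 1 monolayer array and 1 array of 3D spheres, neither of which entered a test. The labels state a subcutaneous injection and the methods a mammary fat pad, and the methods name the cells as carrying a GFP and luciferase reporter. Reproductive state of the normal females was not given in the sources used here. The methods describe 1 or 2 fragments of PT and of LungMets from each of 8 mice, fewer animals than there are arrays in either group. Should these be the animals behind the arrays, at least 1 of them gave more than 1 PT array and at least 1 more than 1 LungMets array. The labels name no animal for an array, so each array counted as a sample, and the p-values measure the spread between samples and would in that case be too small.

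Values are log2 RMA values of 1 probe set per gene, so they are compared between samples for the same gene and not between genes. Differences were tested with limma over all genes, and a gene was called at a Benjamini-Hochberg adjusted p under 0.05. Array medians lay from 5.00 to 5.18. Pairs of arrays were compared before the results, because 2 of them went against their labels. The array labelled PT replicate 5 correlated with the mean of the LungMets at 0.989 and with the mean of the other PT at 0.968, and the array labelled LungMets replicate 9 correlated with the PT mean at 0.983 and with the other LungMets at 0.963. PT replicate 5 and LungMets replicate 5 were the closest of all 378 pairs of arrays, with 11 genes apart by over 1 log2 unit against at least 144 genes in any other pair. The mean of 11 lung epithelium genes was 10.13 in PT replicate 5 and 5.29 to 7.06 in the other PT, while it was 6.69 in LungMets replicate 9 and 10 to 10.66 in the other LungMets. Both arrays were kept under their labels, and results that move without them are given both ways.

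The promoters below are those of the genes on which the results turn and for which a sequence was at hand. They cover the 250 bases before the start of the gene in RefSeq on build GRCm38.p6, read 5′ to 3′ along the gene, and capitals mark TTCNNNGAA, the palindromic core to which Stat5 dimers are known to bind, which reads the same on both strands. Csn1s1 lies on the plus strand at chr5:87665958-87666207, Csn2 on the minus strand at chr5:87699426-87699675, Glycam1 on the minus strand at chr15:103565082-103565331 and Wfdc18 on the plus strand at chr11:83708754-83709003.
Csn1s1: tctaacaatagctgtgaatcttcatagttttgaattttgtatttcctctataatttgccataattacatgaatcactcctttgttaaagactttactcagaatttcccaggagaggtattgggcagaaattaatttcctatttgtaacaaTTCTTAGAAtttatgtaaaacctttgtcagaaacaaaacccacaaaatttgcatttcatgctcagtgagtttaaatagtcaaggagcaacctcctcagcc
Csn2: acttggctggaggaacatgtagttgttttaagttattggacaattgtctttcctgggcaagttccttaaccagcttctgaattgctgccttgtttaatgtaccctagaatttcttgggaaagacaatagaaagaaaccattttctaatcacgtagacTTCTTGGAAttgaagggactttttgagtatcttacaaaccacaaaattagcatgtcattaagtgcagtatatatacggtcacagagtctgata
Glycam1: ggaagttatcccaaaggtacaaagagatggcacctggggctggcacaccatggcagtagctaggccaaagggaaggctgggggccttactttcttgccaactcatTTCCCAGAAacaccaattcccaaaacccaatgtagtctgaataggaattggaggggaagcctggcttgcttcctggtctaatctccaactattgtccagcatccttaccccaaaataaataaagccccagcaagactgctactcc
Wfdc18: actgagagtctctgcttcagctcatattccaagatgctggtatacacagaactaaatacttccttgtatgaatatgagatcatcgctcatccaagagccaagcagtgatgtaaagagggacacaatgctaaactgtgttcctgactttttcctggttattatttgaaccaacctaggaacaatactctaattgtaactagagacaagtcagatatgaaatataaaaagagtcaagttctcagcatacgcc

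The motif occurred once in Csn1s1, Csn2 and Glycam1, and its first base lay 100, 93 and 145 bases before the start. It was not in this window of Wfdc18, nor in those of Wap, Lalba and Mfge8. Of 7 members with a promoter sequence 3 thus held it, and 2306 of all 32851 promoters did, or 7.02%. Csn3, Btn1a1 and Xdh had no entry.

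The first question was how the members in PT compared with NMG, the normal gland of mice that received no cells. Csn1s1, Csn2, Csn3, Glycam1 and Xdh were lower in PT, no member was higher, and Wap, Lalba, Wfdc18, Mfge8 and Btn1a1 did not pass the test. These 5 of 10 members called stand beside 47.7% of all genes, with 26.7% of all genes higher and 21% lower. The median difference of the members was −0.68 log2 units against 0.09 over all genes. In whole tissue, fewer cells of a type and less RNA per cell cannot be told apart. The arrays of NMG carry a date of their own in the labels, and so do those of NL, so for these comparisons the date and the tissue cannot be told apart.

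**Figure D1:**
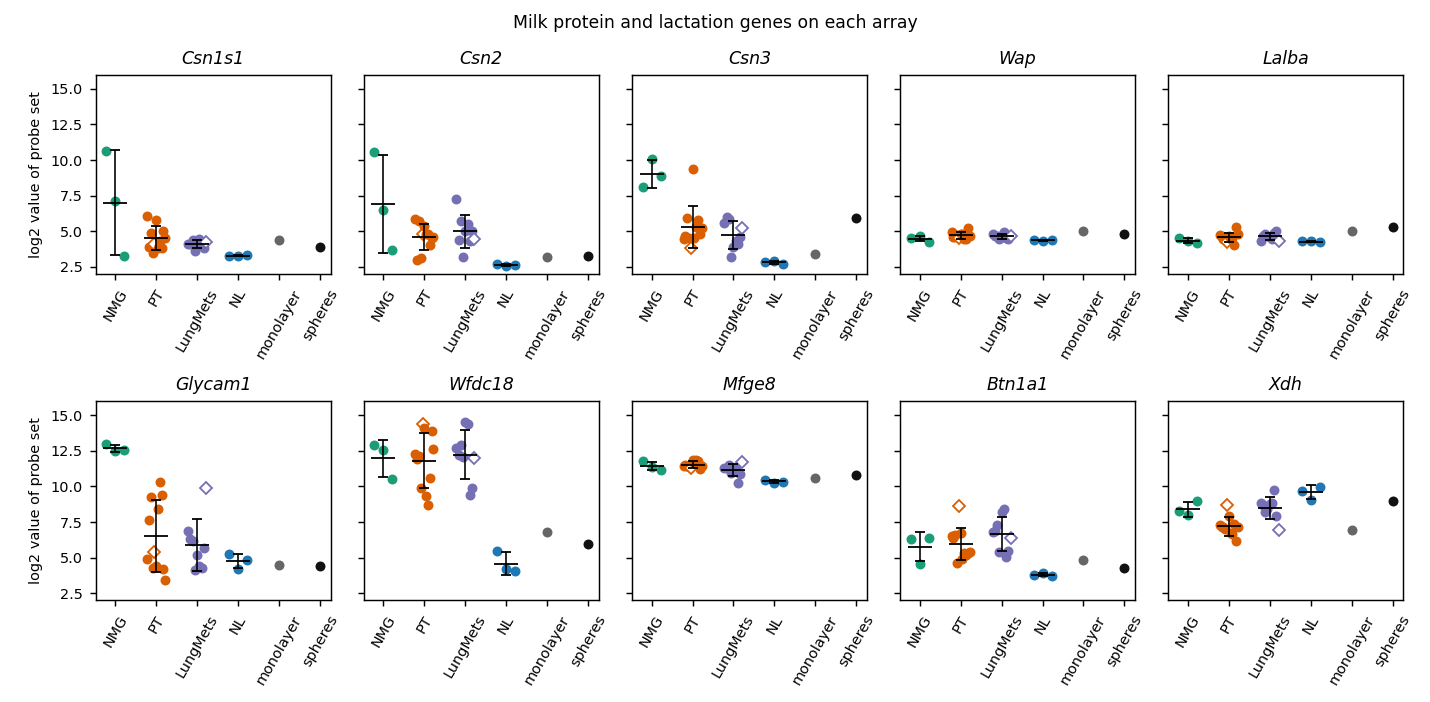
Log2 value of each member (vertical axis, log2 units) on every array of the 6 groups. Points are arrays, bars give mean and SD, and open diamonds are PT replicate 5 and LungMets replicate 9. Glycam1 and Csn3 stand highest in NMG, Wfdc18 and Btn1a1 are above NL in PT and LungMets, and the 3 NMG arrays spread from 3.27 to 10.61 for Csn1s1.

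Csn1s1 encodes alpha-S1-casein, a main protein of the casein micelle. It was 10.61, 7.12 and 3.27 in NMG replicates 1, 2 and 3, and in PT its lowest, median and highest values were 3.51, 4.31 and 6.07. The PT arrays all lay between the lowest and the highest NMG array. Csn1s1 fell in PT by 2.47 log2 units (SE 0.77, limma adjusted p = 0.0101), a call that rested on NMG replicate 1: without it the difference was −0.67 and the adjusted p was 0.414. Csn2 encodes beta-casein and showed the same spread, with 10.54, 6.47 and 3.70 in NMG and 2.98, 4.78 and 5.87 as lowest, median and highest in PT. It was lower in PT by 2.30 (SE 0.853, limma adjusted p = 0.029), and without NMG replicate 1 the difference was −0.48 (limma adjusted p = 0.651). The Csn2 call was also lost without NMG replicate 2 (−2.52, limma adjusted p = 0.0529), and in a fit of these 2 groups alone both Csn1s1 and Csn2 lost theirs (limma adjusted p = 0.0544 and 0.0658). The 3 NMG arrays thus fell in the same order for both genes. NMG replicate 1 also read 7.53 on the lung epithelium list, against 5.83 and 5.48 in replicates 2 and 3, and the cause was not tested.

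Csn3 encodes kappa-casein, which stabilizes the surface of the micelle. It was 8.14, 10.11 and 8.87 in NMG, and 3.82, 4.80 and 9.36 as lowest, median and highest in PT. PT replicate 6, at 9.36, was within the range of NMG, and the other 10 PT lay below every NMG array. Csn3 fell by 3.73 log2 units in PT (SE 0.732, limma adjusted p = 0.000172) and LungMets differed from NMG by −4.28 (SE 0.75, limma adjusted p = 6.69e-05), where the range of 3.23 to 5.99 did not meet that of NMG. A second probe set of Csn3 ranged from 2.54 to 3.39 in LungMets and from 3.46 to 3.53 in NMG, a smaller difference in the same direction.

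Wap and Lalba encode the whey acidic protein and alpha-lactalbumin, the latter a subunit of lactose synthase, and both are late markers of secretory differentiation. Wap was 4.52, 4.64 and 4.27 in NMG, 4.45 to 5.22 in PT and 4.34 to 4.42 in NL. Lalba was 4.53, 4.31 and 4.19 in NMG, 4.04 to 5.28 in PT and 4.23 to 4.33 in NL. NMG and NL overlapped for both genes, and their ranges spanned 0.37 and 0.34 log2 units in NMG. Neither gene passed the test in the 4 comparisons, and PT against NMG gave 0.25 for Wap (SE 0.125, limma adjusted p = 0.111) and 0.24 for Lalba (SE 0.17, limma adjusted p = 0.265). A list of 13 testis, retina and Y-linked genes, which these tissues should lack, had a median difference of 0.21 in that comparison. Other settings called small differences: Wap in PT against NMG with arrays centred on their median (0.40, limma adjusted p = 0.0193), and in LungMets against NL Wap (0.31, limma adjusted p = 0.00513) and Lalba (0.30, limma adjusted p = 0.0359) with array weights.

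Wfdc18, also called Expi, encodes a small secreted protein with the four-disulfide core of whey acidic protein, and its probe set is of a kind that can match more than 1 transcript. It was 12.87, 12.52 and 10.50 in NMG and 8.71, 12.13 and 14.40 as lowest, median and highest in PT. In LungMets the lowest, median and highest were 9.41, 12.23 and 14.49, and in NL it was 5.48, 4.19 and 4.03. PT, LungMets and NMG overlapped throughout, with differences of −0.16 in PT against NMG (SE 1.07, limma adjusted p = 0.915) and 0.42 in LungMets against PT (SE 0.736, limma adjusted p = 0.756). Every LungMets array lay above every NL array, and Wfdc18 was higher in LungMets by 7.66 log2 units (SE 1.09, limma adjusted p = 3.48e-06). The cultured JygMC(A) cells read 6.82 as a monolayer and 5.94 as spheres, each below the lowest tumor array.

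Among PT, Wfdc18 followed the mean of a list named luminal epithelium. Over the 11 PT its value correlated with the mean of 12 genes of luminal and other simple epithelia, among them keratins, claudins, Epcam and the factors Elf3 and Ehf, with r = 0.97 and rho = 0.98 (two-sided permutation p = 1e-05, the smallest that 100000 permutations can give; adjusted p = 0.0003 over 30 relations, for r and for rho). Without PT replicates 7 and 8, the farthest from the median, r was 0.96, and it was 0.99 within the later date of the labels (n = 7, exact permutation p = 0.000397). The 3 NL arrays read 8.29 to 8.41 on that list with Wfdc18 at 4.03 to 5.48. In LungMets, Wfdc18 gave r = 0.73 (n = 9, exact permutation adjusted p = 0.158). No other of the 30 relations passed the adjustment. How many of all genes follow the list as closely was not computed. The genes most like Wfdc18 over the 26 tissue arrays were Ptn, Rbp7 and Xrcc6, with r of 0.945, 0.937 and 0.930.

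**Figure D2:**
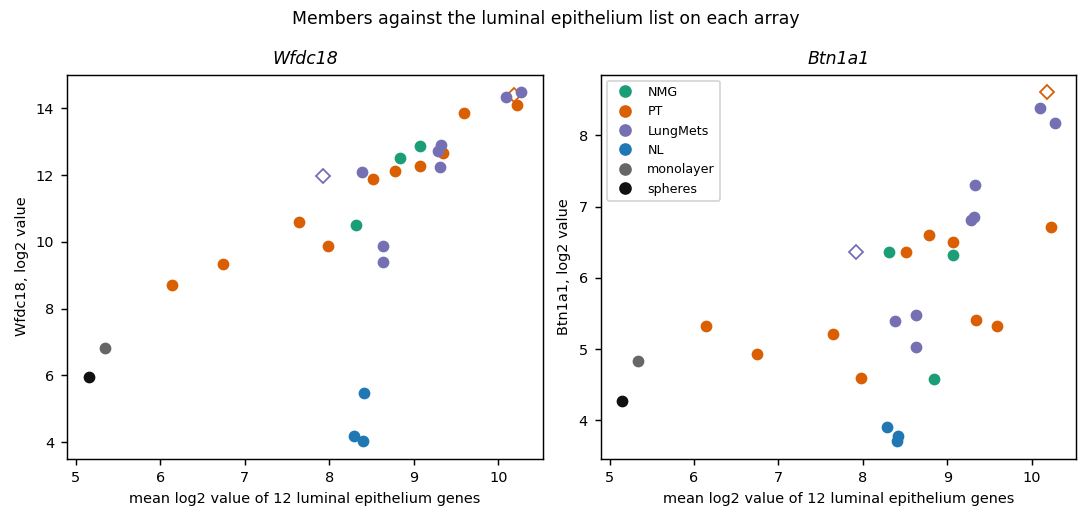
Log2 values of Wfdc18 and Btn1a1 (vertical axes) against the mean log2 value of 12 luminal epithelium genes (horizontal axes), 1 point per array, with PT replicate 5 and LungMets replicate 9 as open diamonds. Wfdc18 in PT climbs along the list mean from 8.71 to 14.40, and the 3 NL arrays lie far below at a list mean of 8.29 to 8.41.

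Btn1a1 encodes butyrophilin, a membrane protein that joins Xdh in wrapping the milk fat droplet. It was 6.32, 4.58 and 6.36 in NMG, 4.59, 5.41 and 8.61 as lowest, median and highest in PT, and 5.03, 6.81 and 8.39 in LungMets. These 3 groups overlapped, and neither tumor group was called against NMG, with 0.89 in LungMets (SE 0.692, limma adjusted p = 0.318). All 9 LungMets lay above NL, at 3.78, 3.91 and 3.71, with a difference of 2.85 (SE 0.692, limma adjusted p = 0.00156). The highest PT was replicate 5, and without it PT against NMG moved from 0.21 to −0.06, both without a call. Btn1a1 correlated with the luminal list with r = 0.84 and rho = 0.87 in LungMets (n = 9, exact permutation adjusted p = 0.0837 and 0.0607) and with r = 0.96 without LungMets replicate 9 (n = 8, exact permutation adjusted p = 0.0167), and r was 0.97 without LungMets replicates 5 and 9. The other probe sets of Btn1a1 spanned 2.54 to 3.21 and 2.16 to 2.60 over PT and LungMets. The first of them was called in LungMets against NMG at 0.29 (limma adjusted p = 0.0448), and the second lost the call against NL at 0.03 (limma adjusted p = 0.828).

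Mfge8 encodes lactadherin, a milk fat globule protein that also marks dying cells for phagocytes. It was 11.75, 11.39 and 11.17 in NMG, 11.22, 11.42 and 11.88 as lowest, median and highest in PT, and 10.23, 11.27 and 11.73 in LungMets. NL, at 10.48, 10.25 and 10.30, was below 8 of 9 LungMets, and the difference was 0.80 (SE 0.205, limma adjusted p = 0.00237). LungMets against PT gave −0.38 (SE 0.138, limma adjusted p = 0.0656), and −0.47 with a call (limma adjusted p = 0.0158) without PT replicate 5 and LungMets replicate 9. A rescaling of each array to its own median, which shifts the median of all genes from −0.02 to −0.13 in this comparison, gave −0.49 with a call (limma adjusted p = 0.0131).

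Xdh encodes xanthine dehydrogenase, which is required in the gland for fat droplet release and is also a purine catabolic enzyme of other tissues. It was 8.25, 7.96 and 8.99 in NMG, and 9.71, 9.06 and 9.99 in NL. PT had 6.18, 7.13 and 8.72 as lowest, median and highest, and LungMets 6.95, 8.71 and 9.76. PT replicate 5 was the highest PT, and LungMets replicate 9 the lowest LungMets. Xdh was lower in PT than in NMG by 1.19 log2 units (SE 0.42, limma adjusted p = 0.0222), with 10 of 11 PT below every NMG array. That call was lost without NMG replicate 1 (−1.26, limma adjusted p = 0.05) and without NMG replicate 3 (−0.90, limma adjusted p = 0.162).

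LungMets against PT asked which genes differ between the metastatic and the primary tumors. All PT were taken on day 30 and all LungMets on day 50, so site and time after injection cannot be told apart. Xdh was the 1 member called, and it was higher, while 15.2% of all genes were called, 9.02% higher and 6.14% lower. The median difference of the members was −0.01 against −0.02 over all genes, and no member had ranges without overlap, which held for 0.11% of all genes. Xdh was higher in LungMets by 1.28 (SE 0.29, limma adjusted p = 0.00382) or 2.42-fold, with 4 of 9 LungMets above every PT array. Without PT replicate 5 and LungMets replicate 9 the difference was 1.62 (limma adjusted p = 1.02e-05). Within the earlier date of the labels, with 4 PT and 4 LungMets, it was 1.39 (limma adjusted p = 0.00101), and within the later date, with 7 and 5, it was 1.20 (limma adjusted p = 0.294). Xdh was lower in LungMets than in NL by 1.10 (SE 0.43, limma adjusted p = 0.0391). The lung epithelium list moved with it, as 10 of its 11 genes were higher in LungMets than in PT, with a median of 5.46, and 8 of 9 endothelium genes were higher, with a median of 1.69. Among LungMets, Xdh and the lung list gave r = 0.78 and rho = 0.47 (n = 9, exact permutation adjusted p = 0.158 and 0.425), and r was 0.14 without LungMets replicates 3 and 9, so the relation rests on those samples. The endothelium list, added after the data were seen, gave r = 0.69 and rho = 0.48 with Xdh in LungMets (n = 9, exact permutation adjusted p = 0.0474 and 0.258 over 4 relations), but r = −0.04 without LungMets replicates 7 and 9, and r = 0.44 in PT (permutation adjusted p = 0.174).

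Glycam1 encodes a mucin-like glycoprotein of milk that is also made by high endothelial venules of lymph nodes, where it carries ligands of L-selectin. It was 12.97, 12.50 and 12.57 in NMG. The 11 PT ranged from 3.43 to 10.34 with a median of 5.37, and the 9 LungMets from 4.12 to 9.90 with a median of 5.70. NL was 5.23, 4.23 and 4.83, and the cells in culture read 4.51 and 4.42. Every tumor array was below every NMG array. Among the members, this absence of overlap held for Glycam1 in PT against NMG, beside 34.3% of all genes, and for Csn3 and Glycam1 in LungMets against NMG, beside 29.7%. Glycam1 fell by 6.16 log2 units in PT (SE 1.24, limma adjusted p = 0.000226) and by 6.79 in LungMets (SE 1.27, limma adjusted p = 0.000145), the largest differences of the 10 members from NMG.

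The PT arrays fell into separate sets for Glycam1. PT replicates 2, 3, 7, 8 and 9 lay from 7.63 to 10.34 and the other 6 from 3.43 to 5.37, with none between. The mean of 8 B lymphocyte and high endothelial venule genes of lymph nodes was 5.85 to 6.42 in the 5 higher arrays and 3.83 to 5.09 in the 6 lower ones. Because the arrays fell into sets, no pooled correlation is given, and within the 6 lower arrays r was 0.34, a description with no test. LungMets replicate 9 was highest in its group for Glycam1, at 9.90, and for the list, at 6.62. All 8 genes of the list were lower in PT than in NMG, with a median of −3.19, and their part in the fall of Glycam1 was not tested. Gpr174 and Tnfrsf13c, both genes of lymphocytes, were most like Glycam1 over the 26 arrays with r of 0.947 and 0.938, followed by Gm8369 with 0.938.

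**Figure D3:**
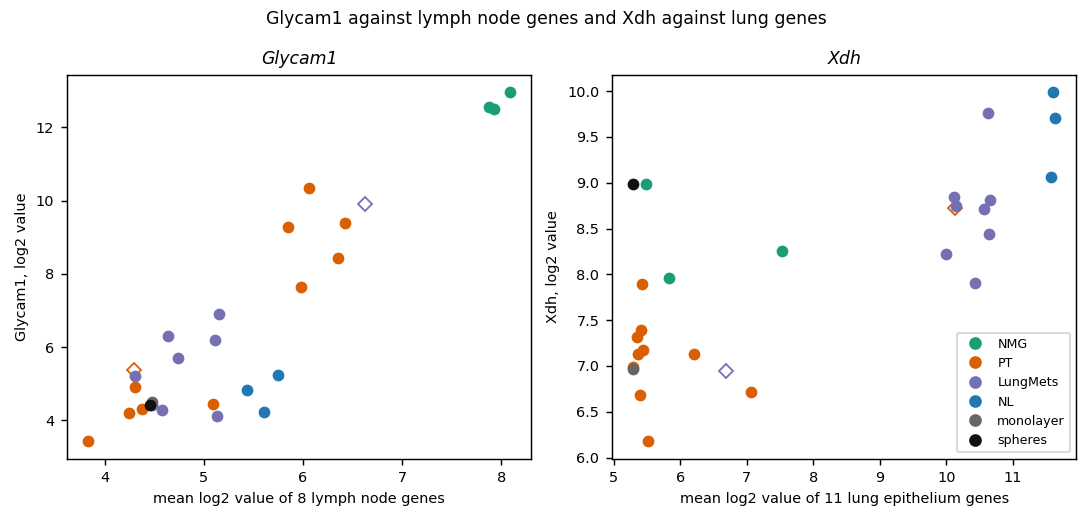
Left, Glycam1 (log2 value, vertical) against the mean log2 value of 8 lymph node genes, and right, Xdh (log2 value, vertical) against the mean log2 value of 11 lung epithelium genes, 1 point per array, with PT replicate 5 and LungMets replicate 9 as open diamonds. NMG stands at the top of the left panel, and on the right PT replicate 5 lies among the LungMets and LungMets replicate 9 among the PT.

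LungMets were set against normal lung and against normal mammary gland as well. Against NL, Csn2, Csn3, Wfdc18, Mfge8 and Btn1a1 were higher and Xdh lower, which makes 6 of 10 members called beside 46.2% of all genes, 23.8% higher and 22.4% lower. The median of the members was 0.97 against 0.05 over all genes. Csn1s1 gave 0.82 without a call (SE 0.788, limma adjusted p = 0.415) in the fit of all tissues, where its SD in NMG was 3.67. In a fit of LungMets and NL alone it gave 0.82 with a call (SE 0.158, limma adjusted p = 0.00106), beside 45.1% of all genes called there. Csn2 was 3.23 to 7.24 in LungMets and 2.56 to 2.68 in NL, a difference of 2.35 (SE 0.873, limma adjusted p = 0.0295), and Csn3 gave 1.93 (SE 0.75, limma adjusted p = 0.0373). Both casein calls were lost when any 1 NL array was left out, with limma adjusted p of 0.0743 to 0.106. The second probe sets gave 0.93 for Csn2 (limma adjusted p = 0.169) and 0.07 for Csn3 (limma adjusted p = 0.648), and the mean of the Csn2 probe sets gave 1.64 (limma adjusted p = 0.0571), none with a call. The Csn3 call was also lost without LungMets replicate 1, 2, 3 or 9, and the Xdh call without NL replicate 1 or 3 or LungMets replicate 3, 8 or 9. The LungMets and NL ranges did not overlap for 6 members, namely Csn1s1, Csn2, Csn3, Wap, Wfdc18 and Btn1a1, while 34.1% of all genes had no overlap.

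Against NMG, Csn1s1, Csn3 and Glycam1 were lower in LungMets and no member was higher, which makes 3 of 10 beside 41% of all genes, 23.1% higher and 17.9% lower. The median of the members was −0.10 against 0.10 over all genes. Csn1s1 fell by 2.90 (SE 0.788, limma adjusted p = 0.00478), and without NMG replicate 1 the difference was −1.10 (limma adjusted p = 0.185). Csn2 gave −1.91 without a call (SE 0.873, limma adjusted p = 0.082), and from −3.52 to −0.10 when single arrays were left out. It was called without NMG replicate 3 (−3.52, limma adjusted p = 0.00263), without LungMets replicate 1 (−2.19, limma adjusted p = 0.0415), with array weights (−2.40, limma adjusted p = 0.0253) and in its second probe set (−1.45, limma adjusted p = 0.0359). Comparisons of PT and of LungMets with NMG share the 3 NMG arrays.

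**Figure D4:**
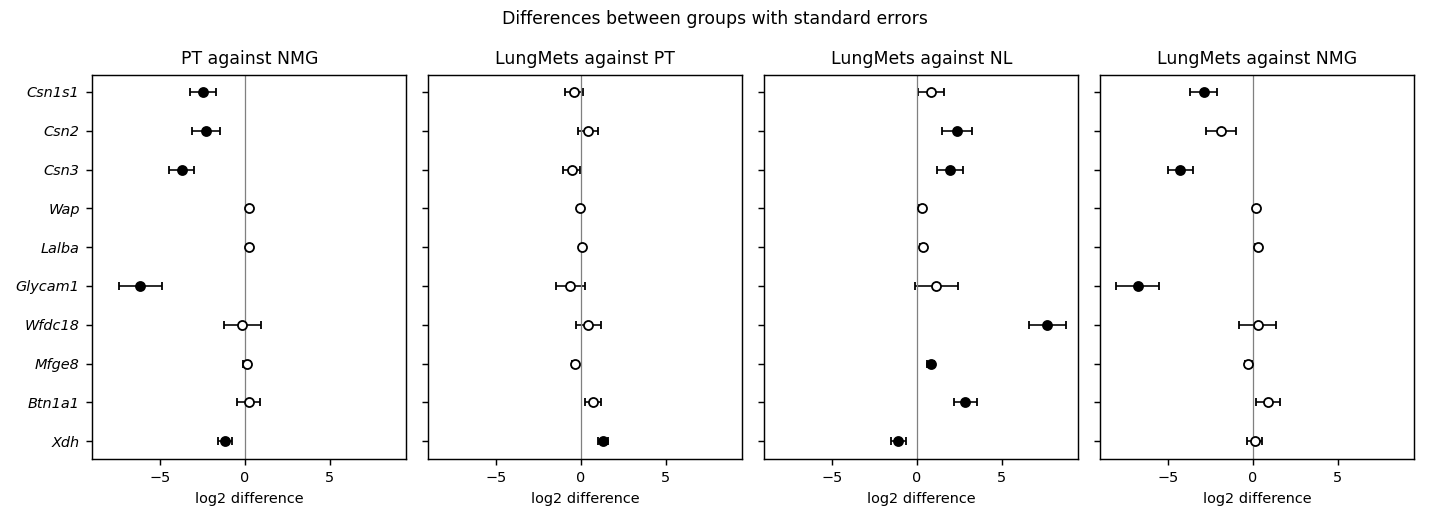
Log2 difference (horizontal axis) with its standard error for the 10 members in the 4 comparisons, filled where the limma adjusted p was under 0.05. Glycam1 and Csn3 lie far to the left against NMG, Wfdc18 far to the right against NL, and Xdh alone is filled in LungMets against PT.

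Other genes of lactation were read from lists. Their counts stand beside 26.7% of all genes higher and 21% lower in PT against NMG. In LungMets against PT these shares were 9.02% and 6.14%. Of 20 genes of prolactin signaling and the alveolar lineage, 11 were lower and 3 higher in PT than in NMG, with a median of −0.84. The prolactin effector Stat5a gave −2.87, the luminal factor Gata3 −5.07, the progesterone receptor Pgr −4.09 and Stat5b −1.10, all called lower. Elf5, the factor of alveolar differentiation, named after its values were seen, was 9.68 ± 2.29 (SD, n = 11) in PT and 8.63 ± 1.06 (SD, n = 3) in NMG (limma adjusted p = 0.472). In LungMets against PT, 2 genes of this list were higher and 1 lower, with a median of 0.08.

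Of 16 other milk constituents, 7 were lower in PT than in NMG and none was higher, with a median of −1.06. Muc15, a mucin of the fat globule membrane, gave −4.30, the fatty acid carrier Cd36 −4.78, the droplet coat protein Plin2 −1.67 and the folate receptor Folr1 −1.10, all called lower. Adipocytes and endothelium also express Cd36 and Plin2, and 7 of 7 adipocyte genes (median −5.31) and 6 of 9 endothelium genes (median −1.90) were lower in PT as well; their part was not tested. In LungMets against PT, 4 of the 16 were higher and none lower. Muc1 was higher by 3.27, the immunoglobulin transporter Pigr by 2.82, Cd36 by 2.50 and Plin2 by 0.44. They moved beside the lung epithelium list, and its part was not tested. A set of 11 genes was taken as casein neighbours, and their positions were not checked here. Of these, 4 were higher and 1, the casein Csn1s2a, was lower in PT than in NMG, beside 26.7% and 21% of all genes. The 4 called higher had PT means of 2.85 to 4.10. The list averaged 3.29 in PT and 3.19 in NMG. Values are not compared between genes, so this gives no rank beside the 3.81 and 3.61 of the testis, retina and Y-linked genes. Those are genes that these tissues should lack, and 5 of 13 were called higher too. Csn1s2a was 5.37 ± 2.37 (SD, n = 3) in NMG and 3.79 ± 0.29 (SD, n = 11) in PT, and no PT array lay below every NMG array. Csn1s2a was also most like Csn1s1 over the 26 arrays, with r of 0.923.

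Of 17 genes of milk fat synthesis, 14 were lower and 1 higher in PT than in NMG, with a median of −2.58. Acaca and Fasn, which make malonyl-CoA and palmitate, gave −3.89 and −3.53, Dgat2, which makes triglyceride, −5.69, and Thrsp −7.73, all called lower. Adipocytes make fat with the same enzymes, and 7 of 7 adipocyte genes were lower in PT, with a median of −5.31. Their part in the result was not tested. Of 12 genes of secretory transport, 3 were higher and 2 lower in PT than in NMG, with a median of 0.20. These counts are near the shares of all genes, 26.7% higher and 21% lower. The glucose transporter Slc2a1 was higher by 1.38, and the sodium, potassium and chloride carrier Slc12a2 was lower, at −1.67.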

How the data were processed

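Whole tissue RNA of 26 samples and RNA of 2 cell cultures was hybridized to mouse Affymetrix arrays. The authors made log2 values of probe sets by RMA in Partek Genomics Suite 6.6 and deposited them, and an RMA version was not given in the sources used here. RMA subtracts background and normalizes by quantiles, which draws arrays to 1 distribution and can narrow differences of low genes. Array signal and replicate number, not read depth, limit precision.

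Of 45101 probe sets, 34958 had 1 gene symbol, 932 several and 9211 none listed. For each of 18194 genes the probe set with the highest mean over 26 tissue arrays was used, which chose among several for 9012 genes. The platform annotation gave the symbols, and 34754 probe sets had a gene identifier in the reference, with 0 symbols changed. A limma 3.58.1 model (R 4.3.3) with 1 mean per group was fitted, two-sided, adjusted over all genes with no filter, and tested on simulated data. Correlations used permutations in Python 3.11.15. Figures used matplotlib 3.10.9.

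The members and lists were chosen with earlier results of these data known. Named were all members and up to 4 genes of each list with the smallest adjusted p in LungMets against PT or in PT against NMG. The 3 genes most like each member were looked up. They are given for Wfdc18 and Glycam1, with the first for Csn1s1, and those of the other members are left out. The other lists held basal epithelium, of which 7 of 9 genes were lower in PT than in NMG, macrophages (4 of 8 lower), luminal epithelium (2 of 12 lower), and testis, retina and Y-linked genes (5 of 13 higher). Alternatives were other probe set rules, a filter, rescaled arrays, fits of 2 groups, ANOVA, a fold of 2, array weights, replicate and date blocks, and left-out arrays. The cell line arrays entered no fit. Some list genes were not analysed here.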

Additional observations from a re-analysis of the deposited data

Results flagged for a closer look

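Glycam1 in LungMets replicate 9 was 9.90, far above the other 8 arrays of its group. Its gap to the next value was 0.520 of the whole range, above the 95% limit of 0.493 for 9 samples. Chance flags about 1 in 20 groups, and 10 were examined. That array also read 6.62 on the lymph node list and 6.69 on the lung epithelium list, and the cause was not tested.

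In the JygMC(A) cultures, which entered no comparison, Wap was 4.99 in the monolayer and 4.80 in the spheres, above the highest NMG array at 4.64. Lalba was 5.00 in the monolayer and 5.27 in the spheres, above the highest NMG array at 4.53. The mean of the 13 testis, retina and Y-linked genes was likewise higher in the cultures, at 4.04 and 4.16 against at most 3.62 in NMG. Xdh in the spheres was 8.99, which equals the highest NMG array to 2 decimals. Each culture is 1 array, so these values have no replicate check.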

How the results depend on the processing

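In the settings other than leaving out 1 array, 357 results kept their direction and side of the threshold, 12 lost and 13 gained a call, and 10 changed sign. With the 9097 genes above the median mean, 4 of 10 members were tested, and 2 were called in PT against NMG, 3 in LungMets against NL and 1 in LungMets against NMG, beside 58.7%, 58.3% and 46.8% of those genes. Fits of the 2 groups alone called 3 in PT against NMG, beside 46% of all genes. In LungMets against PT, 2 members were called with arrays centred on their median, beside 27.6% of all genes. Without PT replicate 5 and LungMets replicate 9, 2 members were called there, beside 20.2%. Within the later date limma and ANOVA called 0 of all 18194 genes and so 0 members there, while 2 members (Mfge8 and Xdh) and 2670 of all genes had an unadjusted p under 0.05. Centring moved the all-gene median from 0.09 to 0.25 in PT against NMG and the calls from 4852 higher and 3820 lower to 7495 and 3082, and in LungMets against PT from 1642 and 1117 to 1259 and 3762. Quantile normalization gave 1429 and 1596 there, and the filter 932 and 1020. A fold of 2 cut all calls to 17.2%, 3.1%, 16.3% and 13.3%.

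With replicate number as a block, limma called 2 members in LungMets against PT (Mfge8 at −0.43 besides Xdh at 1.15), and Wfdc18 in PT against NMG turned to 0.02. It called 4, 8 and 4 members in PT against NMG, LungMets against NL and LungMets against NMG, beside 47.1%, 49.3% and 43.7% of all genes (15.5% in LungMets against PT). Csn2 was lost in PT against NMG (−1.76), and Wap (0.31) and Lalba (0.41) against NL and Btn1a1 (1.26) against NMG were gained in LungMets. The normal tissues came from mice without injected cells, so a number they share with a tumor array marks no shared mouse. Changes in calls against NMG and NL under this block are therefore no paired result. The labels do not say that a number marks a mouse, so the numbers were not taken as pairs in the main fit. Deviations of same-numbered PT and LungMets correlated at 0.09, −0.23 and 0.12 for numbers 1, 2 and 3. For numbers 4 to 9 they correlated at 0.27 to 0.48, and tumor with normal arrays gave −0.31 to 0.06. If the numbers do mark mice, the main fit of LungMets against PT leaves out a pairing.

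Lalba in LungMets against PT turned to −0.05 under both centring and quantile normalization, Mfge8 in PT against NMG to −0.02 with array weights, Btn1a1 in PT against NMG to −0.06 without both arrays that stand apart, and Csn3 in LungMets against PT to 0.25 within the earlier date. Other probe sets gave −0.04 for Btn1a1 and 0.01 for Csn3 in LungMets against PT. Same-number correlations turned to −0.08 for Csn3 and −0.94 for Lalba (exact permutation adjusted p = 0.00926) without numbers 5 and 9. No value that turned was called in the reported setting. The cause was not tested.

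Leaving out 1 array gave 2 to 5 members in PT against NMG, 1 to 2 in LungMets against PT, 3 to 6 in LungMets against NL and 2 to 4 in LungMets against NMG, beside 37.2% to 49%, 11% to 17.6%, 37.1% to 47.1% and 29.4% to 42.1% of all genes. It turned the sign of uncalled values only: Wfdc18 in PT against NMG ran from −0.89 to 0.29, Mfge8 from −0.05 to 0.24 and Btn1a1 from −0.38 to 0.51, and in LungMets against NMG Wfdc18 ran from −0.47 to 0.71 and Xdh from −0.13 to 0.38. Without LungMets replicate 9, list relations in LungMets turned from −0.41 to 0.15 for Glycam1 (luminal), from 0.14 to −0.25 for Csn2 (lung) and from 0.50 to −0.10 for Lalba (lung).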

Other observations

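PT and LungMets arrays carry replicate numbers, and the labels do not say whether a number marks a mouse. Over the 9 shared numbers, Wfdc18 in PT and in LungMets gave r = 0.94 and rho = 0.95 (exact permutation adjusted p = 0.00361 and 0.00353 over 10 members). Btn1a1 gave r = 0.87 (rho 0.93, exact permutation adjusted p = 0.00573 and 0.00375) and Csn2 r = 0.84 (rho 0.92, exact permutation adjusted p = 0.00905 and 0.00437). Replicates 5 of the 2 groups were the closest pair of arrays of all, and without numbers 5 and 9, a choice made after seeing the data, r was 0.92, 0.91 and 0.83. The other 7 members did not pass the adjustment, but without numbers 5 and 9 Lalba gave r = −0.94 (n = 7, exact permutation adjusted p = 0.00926), against 0.10 with them. The share of all genes that correlate by number was not computed. These relations are therefore not shown to be particular to the members. Within the dates of the labels there were 4 and 5 numbers, too few for a value.

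In the cultures, Csn3 was 3.40 in the monolayer and 5.97 in the spheres, and Xdh was 6.97 and 8.99, each from 1 array.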
